A study of Mus musculus with 6 samples.

Results

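The genes described here are 10 that sense or move cholesterol in the cell: the liver X receptor (LXR) genes Nr1h2 and Nr1h3, the efflux transporter genes Abca1, Abcg1 and Abcg4, Apoe, Mylip, the lysosomal cholesterol carriers Npc1 and Npc2, and the esterifying enzyme gene Soat1. They were chosen by symbol, and each matched 1 Ensembl mouse identifier among the 55416 in the count table. Messenger RNA was sequenced in 6 libraries of MB21, a mouse medulloblastoma line labelled as a ptch mutant and grown without attachment in DMEM/F12 with B27. In 3 libraries the cells had received DS-1-38, a derivative of benzarone called DS38 in the sample names, at 10 uM, and in the other 3 the vehicle DMSO; both groups were treated for 1 day and carry the same mutation. The series' design text names 5 days, whereas the title, the sample titles and the treatment protocol give 1 day. MB21 is 1 line. Nothing in the labels ties the replicates to separate cultures, and p-values therefore cover the spread between these libraries, which may be technical.

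LXRs are nuclear receptors that bind DNA together with retinoid X receptors and are switched on by oxysterols and by desmosterol, so they respond when sterols accumulate. Their targets remove cholesterol: ABCA1, ABCG1 and ABCG4 pass it out of the cell to lipoprotein particles, apolipoprotein E carries it in the brain, and the ubiquitin ligase encoded by Mylip (also called IDOL) sends lipoprotein receptors for degradation. NPC1 and NPC2 release cholesterol from the lysosome, and SOAT1 stores it as esters.

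A promoter entry of RefSeq (build GRCm38.p6, from 250 bases before to 50 after a start site) was matched for 7 of the 10 genes, with 10 start sites between them. Those of Abca1 and Mylip, which are known LXR targets, and of Soat1, the gene that passed the test below, are shown 5′ to 3′ on the gene's own strand, Abca1 from chr4:53159846-53160145, minus strand, Mylip from chr13:45389492-45389791, plus strand, and Soat1 from chr1:156474279-156474578, minus strand. Capitals mark the E-box and the LXR-type repeat described after them.
Abca1: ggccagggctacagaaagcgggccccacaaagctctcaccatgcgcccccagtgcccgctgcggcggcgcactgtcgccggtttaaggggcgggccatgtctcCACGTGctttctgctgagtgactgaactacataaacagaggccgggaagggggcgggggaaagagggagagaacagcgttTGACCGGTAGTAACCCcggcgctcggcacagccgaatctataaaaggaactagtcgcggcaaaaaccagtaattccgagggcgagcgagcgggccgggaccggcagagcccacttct
Mylip: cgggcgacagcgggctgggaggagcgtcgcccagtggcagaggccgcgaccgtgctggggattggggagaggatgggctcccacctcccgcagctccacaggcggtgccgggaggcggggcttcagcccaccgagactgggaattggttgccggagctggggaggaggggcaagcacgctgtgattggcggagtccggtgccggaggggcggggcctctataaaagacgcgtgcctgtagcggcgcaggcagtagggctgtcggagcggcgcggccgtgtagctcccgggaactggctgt
Soat1: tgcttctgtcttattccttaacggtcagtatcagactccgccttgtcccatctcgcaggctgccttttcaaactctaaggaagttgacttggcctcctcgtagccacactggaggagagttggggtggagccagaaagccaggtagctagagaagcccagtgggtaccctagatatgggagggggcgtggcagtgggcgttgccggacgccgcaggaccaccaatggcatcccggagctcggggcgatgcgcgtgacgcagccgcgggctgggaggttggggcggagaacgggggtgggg

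LXRs favour a direct repeat of AGGTCA with 4 bases between the copies, called DR4. Both strands of the 10 promoters were searched, and none held the exact repeat, a single AGGTCA, or the sterol element TCACNCCAC. Of 32851 promoters in the RefSeq table, 0.0152% held the exact repeat, 16.3% AGGTCA and 1.24% TCACNCCAC. Allowing 3 of the 12 fixed bases to differ, a search added after seeing the data, the Abca1 promoter alone of the 10 held a DR4-like stretch, on the opposite strand between positions -67 and -52, where -1 is the base before the start. That looser search matched 21.9% of all promoters, and one allowing 2 differences matched 3.02% and none of the 10. The Abca1 promoter also held the E-box CACGTG between positions -147 and -142, which 7.15% of all promoters hold. The capitals do not overlap each other. They are matches of letters within these windows.

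After 1 day of DS38, of the 9 LXR and efflux genes that passed the filter on low counts, 1 rose and 0 fell by edgeR's quasi-likelihood test (adjusted p under 0.05). The gene that rose was Soat1, by 1.096-fold. Among all 17679 genes tested, 12.9% rose, 11.7% fell and 24.5% did either, and the share of the 9 that rose was near that of all genes. At an unadjusted p under 0.05, 2 of the 9 were higher, Nr1h3 and Soat1, and 0 were lower, against 6332 of the 17679 genes in either direction. DESeq2 called 0 higher and 0 lower, with 1 higher and 0 lower at an unadjusted p under 0.05, and limma-voom called 1 higher and 0 lower. Log2 fold changes of the 9 ran from -0.21 to 0.25 with a median of 0.07 and were positive in 8, and the median of all tested genes was 0.004, with 8983 positive. The groups did not overlap in 2 of the 9, Soat1 and Abca1, against 38.6% of all tested genes.

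**Figure D1:**
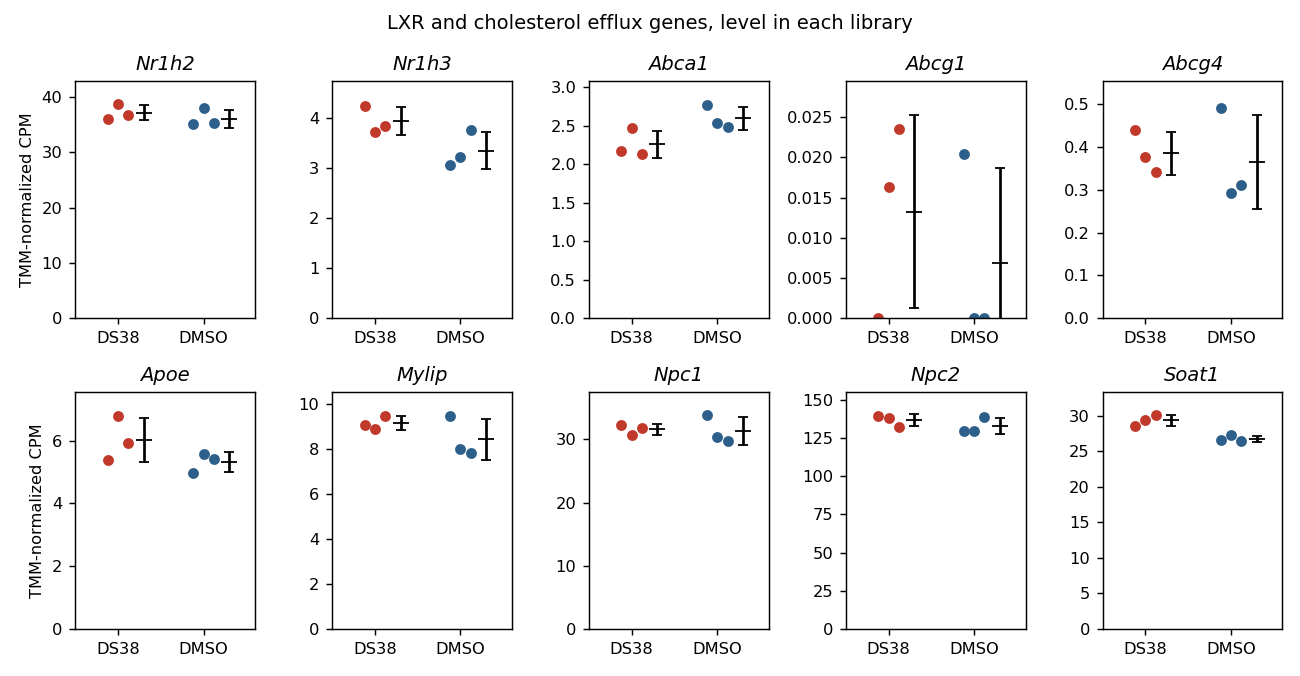
Level of each gene in counts scaled to library size with TMM factors (CPM), with DS38 libraries left and DMSO libraries right. Points are libraries, and bars are the mean ± SD of 3 (cut at 0 for Abcg1). Soat1 lies above and Abca1 below the DMSO libraries in every DS38 library, and the groups overlap in the other genes.

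Depth differed between the groups without overlap, at 60434089 to 84044428 counts in DS38 and 38840296 to 50014681 counts in DMSO. Levels are given as CPM, counts per library of a common size after TMM scaling, which corrects for depth and composition. The libraries had the markers of cerebellar granule cell progenitors, from which this tumour type arises: all 8 on the list were tested, with a summed level of 1758 to 1791 CPM in DS38 and 1748 to 1781 CPM in DMSO. The most abundant were Zic1, Atoh1 and Barhl1; 2 of the 8 rose and 4 fell. Of 12 microglia and macrophage markers 3 passed the filter and 4 (Itgam, Tyrobp, C1qa and C1qb) had 0 counts; the list summed to 2.02 to 2.35 CPM in DS38 and 1.88 to 2.25 CPM in DMSO. Of 17679 genes, 2272 were higher and 2068 lower, so that 52.4% of the calls were higher; with library size alone as the scaling, 68.1% were.

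The receptor genes differed in abundance, and neither passed the test. Nr1h2, which encodes the broadly expressed LXRβ, was at 36.1, 38.8 and 36.7 CPM in the DS38 libraries, against 35.1, 38.0 and 35.3 CPM in the DMSO libraries. These values overlapped, and the log2 fold change was 0.04 ± 0.043 (SE; edgeR adjusted p = 0.540). Its 95% interval covered 0.966-fold to 1.095-fold. Nr1h3, which encodes LXRα, the form typical of liver, fat and macrophages, was at 4.24, 3.72 and 3.84 CPM in DS38, against 3.05, 3.22 and 3.75 CPM in DMSO. The first DS38 library was the highest, and the lowest DS38 value lay just under DMSO replicate 3, so the groups overlapped. Its log2 fold change of 0.25 ± 0.11 was the largest of the 9 in size, with a 95% interval of 1.01-fold to 1.40-fold, and did not pass after adjustment (unadjusted p = 0.0422, edgeR adjusted p = 0.123). Without DMSO replicate 3 the value was 0.32 (edgeR adjusted p = 0.0516).

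Counted per kilobase of gene length, the mRNA of LXRβ exceeded that of LXRα in all 6 libraries. The ratio of Nr1h2 to Nr1h3 was 6.39, 7.83 and 7.18 in DS38, against 8.64, 8.83 and 7.05 in DMSO. Its means were 7.13 ± 0.720 in DS38 and 8.18 ± 0.976 in DMSO (SD, n = 3 each), and the groups overlapped. The ratio depends on the length used: by the median length of coding transcripts in GENCODE M21, the means over 6 libraries were 25.3 CPM per kilobase for Nr1h2 and 2.05 for Nr1h3, against 10.9 and 1.45 by the deposited length.

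The efflux transporter genes were the least abundant of the 10 per length of gene, and none passed the test. Abca1 was at 2.17, 2.46 and 2.14 CPM in DS38, against 2.76, 2.54 and 2.48 CPM in DMSO. All DS38 values lay below all DMSO values, by a margin of 2.46 against 2.48 CPM at the closest, and the counts behind them were 151 to 182 in DS38 and 96 to 135 in DMSO. It was the single tested gene of the 9 with a negative log2 fold change, -0.21 ± 0.13, which did not pass (edgeR adjusted p = 0.263; 95% interval 0.716-fold to 1.04-fold). The sign stayed negative in all 13 alternatives that tested it, from -0.32 to -0.16, and none passed. Abcg4, a transporter known from neurons and astrocytes, was at 0.439, 0.375 and 0.340 CPM in DS38, against 0.491, 0.291 and 0.310 CPM in DMSO. The groups overlapped, and with 87 and 50 counts in DS38 and DMSO the interval of 0.649-fold to 1.69-fold was the widest of the 9 (log2 fold change 0.07 ± 0.33; edgeR adjusted p = 0.910). Abcg1, which loads cholesterol onto high-density lipoprotein particles, had 0, 1 and 2 counts in DS38 and 1, 0 and 0 counts in DMSO and was not tested. With 3 of 223732826 counts in DS38 and 1 of 137415801 in DMSO, exact Poisson limits were at most 0.0392 CPM in DS38 and 0.0406 CPM in DMSO. These limits cover counting error only.

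Apoe, the gene of the main lipoprotein component made in the brain, was at 5.39, 6.78 and 5.93 CPM in DS38, against 4.97, 5.57 and 5.43 CPM in DMSO. DS38 replicate 2 was the highest and DS38 replicate 1 lay inside the DMSO range. The log2 fold change was 0.17 ± 0.098 (edgeR adjusted p = 0.207), with a 95% interval of 0.981-fold to 1.299-fold; the log2 fold change was 0.09 without DS38 replicate 2 and 0.25 without DS38 replicate 1. Astrocytes and microglia are the main sources of Apoe in brain. Of 8 astrocyte markers 5 were tested, and Aqp4, Gja1 and Aldh1l1 had 3, 3 and 8 counts in all libraries. The astrocyte list summed to 390.5 to 402 CPM in DS38 and 448 to 472 CPM in DMSO, nearly all of it from Slc1a2 and Slc1a3. Within it Gfap rose (5.40 ± 0.333 CPM in DS38 and 4.33 ± 0.241 CPM in DMSO; edgeR adjusted p = 0.0179) and Slc1a2 fell (249 ± 3.86 CPM in DS38 and 309 ± 11.4 CPM in DMSO; edgeR adjusted p = 1.803e-07). The part of such cells in the level of Apoe was not tested, and in bulk RNA fewer cells of a type cannot be told apart from less RNA per cell.

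Mylip, the ligase acting on lipoprotein receptors, was at 9.10, 8.90 and 9.51 CPM in DS38, against 9.50, 8.03 and 7.83 CPM in DMSO. DMSO replicate 1 stood above the other DMSO libraries and inside the DS38 range. The log2 fold change was 0.12 ± 0.079 (edgeR adjusted p = 0.315), with a 95% interval of 0.966-fold to 1.21-fold. The log2 fold change was 0.06 without DMSO replicate 3 and 0.21 without DMSO replicate 1 (edgeR adjusted p = 0.0746).

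Neither gene of the lysosomal pair passed the test. Npc2, the soluble protein that binds cholesterol inside the lysosome, was at 140, 138 and 132 CPM in DS38, against 130, 130 and 139 CPM in DMSO. The groups overlapped, with a log2 fold change of 0.04 ± 0.033 (edgeR adjusted p = 0.352) and a 95% interval of 0.984-fold to 1.08-fold, the narrowest of the 9. Npc1, the membrane protein that takes cholesterol over from NPC2, was at 32.3, 30.6 and 31.7 CPM in DS38, against 33.9, 30.3 and 29.7 CPM in DMSO. All DS38 values fell inside the DMSO range, with a log2 fold change of 0.01 ± 0.048 (edgeR adjusted p = 0.900) and a 95% interval of 0.940-fold to 1.08-fold. In the GENCODE M21 annotation 4.52% of the exon length of Npc1 overlaps the opposite-strand gene Rmc1, and whether strand was counted is not given in the sources used here.

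Soat1, the enzyme that esterifies cholesterol in most tissues, was at 28.5, 29.5 and 30.1 CPM in DS38, against 26.6, 27.2 and 26.5 CPM in DMSO. The lowest DS38 library lay above the highest DMSO library. The means were 29.4 ± 0.802 CPM in DS38 and 26.8 ± 0.416 CPM in DMSO (SD, n = 3 each), a log2 fold change of 0.13 ± 0.044 (SE) with a 95% interval of 1.03-fold to 1.17-fold (edgeR adjusted p = 0.0302). The call was close to the threshold. It was lost with DESeq2 (adjusted p = 0.0651) and without DS38 replicate 2 or 3 or DMSO replicate 1, 2 or 3 (edgeR adjusted p = 0.0851, 0.121, 0.0800, 0.0510 and 0.0622), while the log2 fold change stayed between 0.11 and 0.17 in all 14 alternatives. Among 9983 genes of at least 5 CPM, those whose log2 CPM followed Soat1 most closely over the 6 libraries were Snhg6 (r = 0.9956) and Mdfic (r = 0.9952), given as a description; the 6 points share the split into groups.

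**Figure D2:**
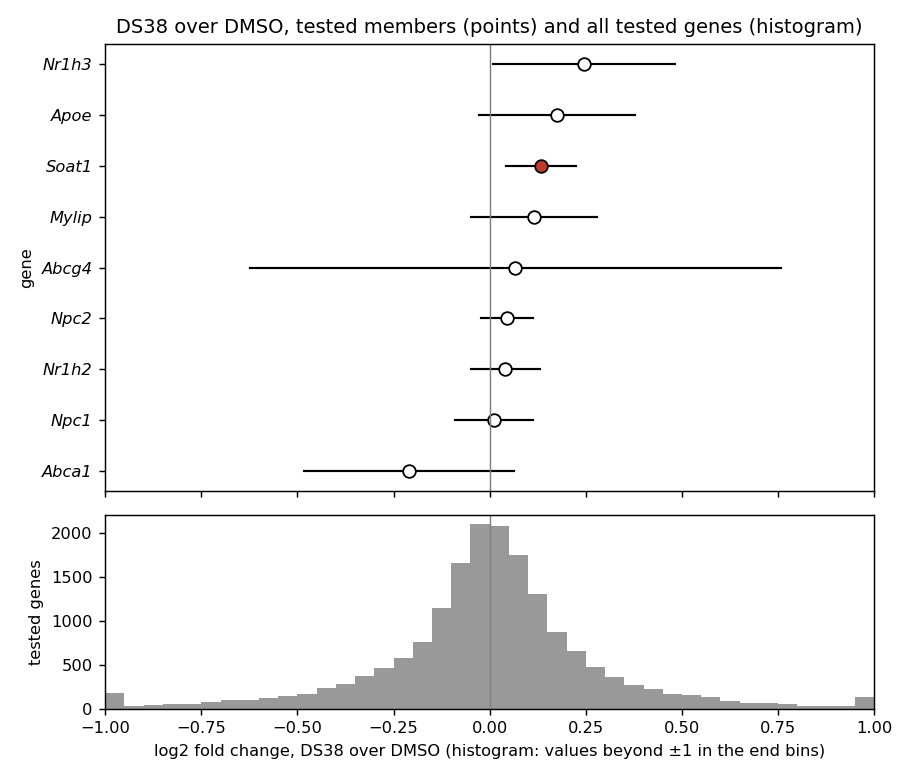
Log2 fold changes of DS38 over DMSO for the 9 tested genes (points, with 95% intervals as lines) above the histogram of all 17679 tested genes. The filled point, Soat1, passed edgeR's adjusted threshold. The interval of Npc2 is the narrowest and that of Abcg4 the widest.

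Ordered by CPM per kilobase of the deposited gene length, Npc2 was highest at 24.8, above 87.5% of tested genes, followed by Nr1h2 at 10.9, above 72.2%. Soat1, Npc1, Mylip and Apoe followed at 2.87, 2.78, 2.73 and 2.66 CPM per kilobase, and neighbours among these 4 overlapped over the 6 libraries. Nr1h3 was at 1.45, Abca1 at 0.234, Abcg4 at 0.0719 and Abcg1 at 0.00138 CPM per kilobase. Abca1 was above 13.01% and Abcg4 above 3.39% of tested genes. Each of these lower steps was larger than the spread over libraries, as were those from Npc2 to Nr1h2 (2.27-fold) and from Nr1h2 to Soat1 (3.81-fold). The deposited length equalled the combined exons of the gene in GENCODE M21 for all 10 genes, which is longer than a typical transcript. With the median length of its coding transcripts instead, chosen after seeing the data, the top 2 and the bottom 4 kept their ranks, and the order between them became Soat1 (14.98), Apoe (6.95), Npc1 (6.02) and Mylip (3.51 CPM per kilobase).

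**Figure D3:**
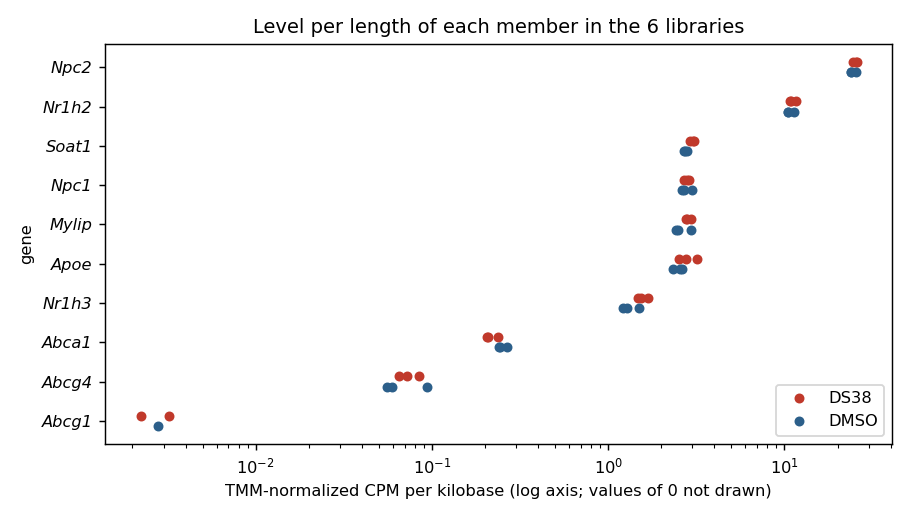
Level of each gene in CPM per kilobase of deposited gene length, on a log axis, in the 3 DS38 libraries (upper points of each row) and the 3 DMSO libraries (lower points). Npc2 and Nr1h2 stand above the rest, 4 genes lie close together near 2.7 to 2.9, and the efflux transporters are lowest.

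Among 18 other known LXR targets, 11 were tested, of which 2 rose and 5 fell, with a median log2 fold change of -0.08. This and the lists below were drawn up with earlier results of these data known. Those that rose were Lpl, lipoprotein lipase (34.8 ± 0.484 CPM in DS38 and 26.9 ± 0.545 CPM in DMSO), and Mertk, a receptor for engulfing dead cells (2.28 ± 0.125 CPM in DS38 and 1.43 ± 0.242 CPM in DMSO). Those that fell included the lipid synthesis genes Fasn, Scd1 and Scd2, by 0.47, 0.36 and 0.33 on the log2 scale, which sterol regulatory element-binding proteins (SREBPs) also drive. The others were Apod, a lipid carrier, at 0.735 ± 0.106 CPM in DS38 and 1.495 ± 0.0734 CPM in DMSO, and Rnf145, a ligase of the endoplasmic reticulum (log2 fold change -0.09; edgeR adjusted p = 0.0404). Rnf145 was named after its value was seen, and its call was lost with library size alone, no filter, the replicate block and thinning and without any 1 of the DS38 libraries or DMSO replicate 1. Srebf1 and Lpcat3, also named after their values were seen because they are widely used as LXR readouts, had log2 fold changes of -0.08 ± 0.035 and -0.08 ± 0.048 and did not pass (edgeR adjusted p = 0.111 and 0.249). Abcg5, Abcg8, Cyp7a1, Apoc1, Apoc2, Mlxipl and Smpdl3a were left out by the filter, with 0 to 16 counts each over the 6 libraries.

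Of 14 tested LXR partners and coregulators, 2 rose (Rxra and Tbl1xr1) and 4 fell, with a median log2 fold change of -0.0035. The corepressor genes Nrip1 and Gps2 were among those that fell, by 0.11 ± 0.034 and 0.16 ± 0.047 on the log2 scale. Rxra, the gene of a retinoid X receptor, was at 87.5 ± 1.62 CPM in DS38 and 81.9 ± 1.09 CPM in DMSO (edgeR adjusted p = 0.0300). That call was lost with DESeq2, with the replicate block and without DS38 replicate 1 or 2 or DMSO replicate 2 or 3. Rxrb, the gene of another retinoid X receptor, was named after its value was seen. It was at 51.3 ± 1.39 CPM in DS38 and 51.5 ± 1.72 CPM in DMSO (edgeR adjusted p = 0.976). Over the alternatives 0 to 3 rose and 1 to 5 fell: 0 rose with DESeq2 (3 at an unadjusted p under 0.05) and without DS38 replicate 1 or DMSO replicate 2, and 1 without DS38 replicate 2, DS38 replicate 3 or DMSO replicate 3, and 1 fell without DS38 replicate 1 and 2 without DS38 replicate 2 or DMSO replicate 1 or 2.

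Enzymes that make or remove the sterols sensed by LXRs moved in both directions. Of 6 tested, 3 rose and 1 fell, with a median of 0.14 on the log2 scale. Cyp39a1, an oxysterol hydroxylase, rose (28.4 ± 0.416 CPM in DS38 and 24.4 ± 0.563 CPM in DMSO; edgeR adjusted p = 0.00108), as did Cyp11a1, which cleaves the cholesterol side chain (19.1 ± 0.657 CPM in DS38 and 16.2 ± 1.15 CPM in DMSO; edgeR adjusted p = 0.00368). Cyp7b1 also rose, by 0.19 ± 0.062 on the log2 scale, a call lost without DS38 replicate 2 or 3 or DMSO replicate 1 or 2. Ch25h, cholesterol 25-hydroxylase, had 0 counts in all libraries.

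Of 10 tested genes of lipoprotein uptake, 2 rose and 3 fell, with a median log2 fold change of -0.0089. Lrp8, a receptor for ApoE in neurons, was at 107 ± 1.87 CPM in DS38 and 128 ± 4.79 CPM in DMSO, and the receptor chaperone gene Lrpap1 at 56.3 ± 0.652 CPM in DS38 and 67.5 ± 1.40 CPM in DMSO; both fell. Vldlr, a receptor that MYLIP degrades, named after its value was seen, was at 120.1 ± 4.69 CPM in DS38 and 119 ± 4.89 CPM in DMSO (edgeR adjusted p = 0.860). Sorl1, a sorting receptor, was among those that rose, by 0.18 ± 0.061 on the log2 scale, a call lost in 7 of 14 alternatives. None of the list rose with DESeq2 (2 at an unadjusted p under 0.05) or without DS38 replicate 2, DS38 replicate 3, DMSO replicate 1 or DMSO replicate 3. Only 1 rose with limma-voom, no filter, the replicate block or thinning, or without DS38 replicate 1 or DMSO replicate 2.

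Of 20 tested genes of lysosomal cholesterol egress and sterol transfer, 6 rose and 3 fell, with a median log2 fold change of 0.01. Lipa, the lysosomal lipase that frees cholesterol from lipoprotein esters, rose (6.12 ± 0.142 CPM in DS38 and 4.57 ± 0.587 CPM in DMSO; edgeR adjusted p = 0.00283), as did the oxysterol-binding protein genes Osbpl1a and Osbpl5 by 0.35 ± 0.073 and 0.17 ± 0.037 on the log2 scale. Stard4, a cytosolic carrier that SREBP2 induces, fell (192 ± 1.76 CPM in DS38 and 237 ± 6.07 CPM in DMSO; edgeR adjusted p = 1.395e-07), as did Tmem97 and Osbpl11 by 0.15 ± 0.036 and 0.11 ± 0.035 on the log2 scale. The Osbpl11 call was lost in 5 of 14 alternatives: library size alone, no filter, and without DS38 replicate 1 or 2 or DMSO replicate 1. Leaving out DMSO replicate 2 left 3 that rose.

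Of the other ABCA and ABCG genes, 9 were tested, of which 3 rose and 1 fell, with a median log2 fold change of 0.10. Abca3 and Abca5 rose by 0.27 ± 0.045 and 0.17 ± 0.046 on the log2 scale, and Abcg2, a drug efflux pump with 171 counts in all, was at 0.580 ± 0.0527 CPM in DS38 and 0.295 ± 0.103 CPM in DMSO (edgeR adjusted p = 0.0266). Abca9 fell (53.4 ± 0.918 CPM in DS38 and 66.6 ± 3.99 CPM in DMSO; edgeR adjusted p = 3.267e-06). The Abcg2 call was lost without any 1 of the DS38 libraries or DMSO replicate 1 or 2.

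The median log2 fold change of 8 tested genes of sterol esters and lipid droplets was 0.08. Of these 1 rose and 0 fell by edgeR, where 3 were higher and 0 lower at an unadjusted p under 0.05; DESeq2 and limma-voom also called 0 lower. The gene that rose was Nceh1, which hydrolyses cholesterol esters, the reverse of the SOAT1 reaction (24.1 ± 0.0916 CPM in DS38 and 19.4 ± 0.468 CPM in DMSO; log2 fold change 0.31 ± 0.048; edgeR adjusted p = 5.576e-05). Leaving out DS38 replicate 1 or DMSO replicate 3 gave 3 that rose, and leaving out DMSO replicate 1 or 2 gave 2. Of 7 tested sterol acceptors and lipoprotein factors, Lpl rose and Apod fell, both also on the list of LXR targets, and the median log2 fold change was -0.30. That median is the value of Lcat, which did not pass (edgeR adjusted p = 0.246). Apart from Lpl, the tested genes of this list had group means of at most 2.05 CPM. The list summed to 39.2 to 40.8 CPM in DS38 and 32.5 to 33.6 CPM in DMSO, most of it from Lpl.

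SREBP2, the factor that raises cholesterol synthesis and uptake when sterols are scarce, formed a further list with its regulators and leading targets. Of 10 tested, 3 rose and 6 fell, with a median log2 fold change of -0.17. Idi1, Hmgcs1 and Sqle, enzymes of cholesterol synthesis, fell by 0.47, 0.32 and 0.29 on the log2 scale. Srebf2 itself, named after its value was seen, was at 346 ± 6.55 CPM in DS38 and 370 ± 3.12 CPM in DMSO. Those that rose were Mbtps2, a protease that activates SREBPs, and Insig2 and Scap, which hold and escort them; leaving out DMSO replicate 1 left Mbtps2 alone. The Scap call was lost in 9 of 14 alternatives, DESeq2 and the replicate block among them. The difference between this list and the 10 genes was not tested.

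**Figure D4:**
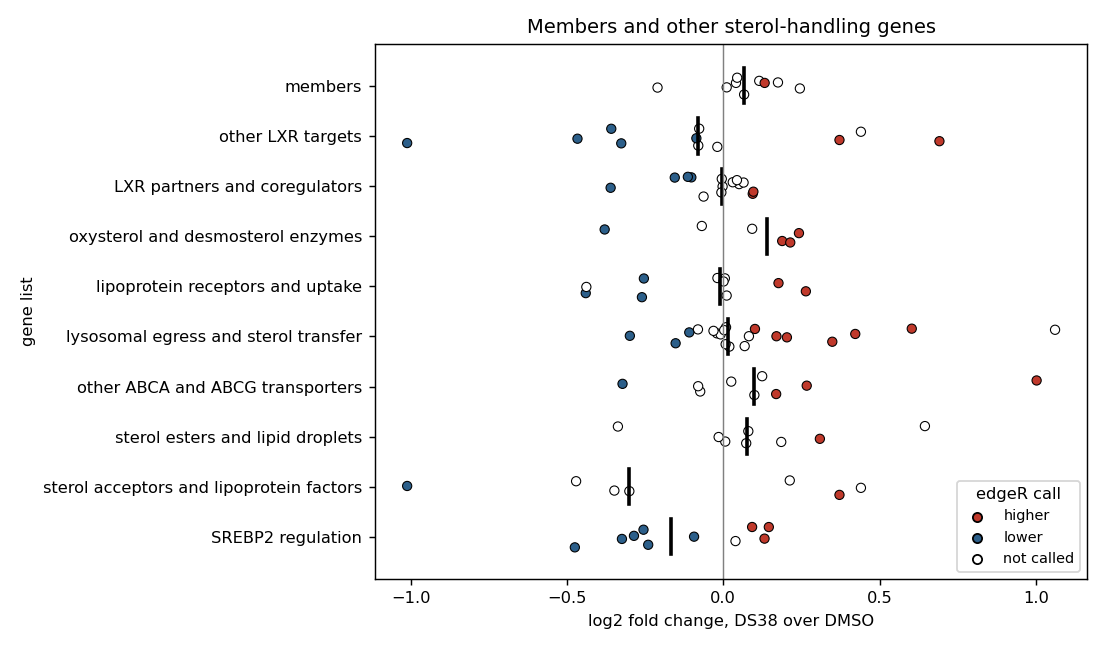
Log2 fold change of DS38 over DMSO for the tested genes of the 10-gene group (top row, "members") and of each other list. Points are genes, filled where edgeR's adjusted p was under 0.05 (red higher, blue lower), and bars are medians. The top row has 1 filled point, and the SREBP2 list has 9 of 10. Among all 17679 tested genes 24.5% passed in either direction. The lists were drawn up with earlier results of these data known, and differences between rows were not tested.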

How the data were processed

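The deposited data are a single table of raw read counts, 1 row per Ensembl gene and 1 column per library, beside the length of each gene in bases. The submitters' processing notes list STAR 2.7.9a, Subread 2.0.3, featureCounts, edgeR and R 4.1.0; GRCm39 and GRCh38.p13 appear as builds without a role. How strand and multi-mapped reads were treated is not given in the sources used here. Symbols were matched for 52083 of 55416 identifiers; the rest held 0.345% of counts. The RNA came from a column kit and an mRNA library kit, per the labels' protocols.

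The genes and lists were chosen with earlier results of these data known. Tests ran in edgeR 4.0.16, with limma 3.58.1 and DESeq2 1.42.0 as alternatives, under R 4.3.3; sequences and figures were handled in Python 3.11.15 with matplotlib 3.10.9. Genes were kept by filterByExpr (minimum count 10, minimum total 15), scaled by TMM, and the groups were compared by a two-sided edgeR quasi-likelihood test (group the only term), adjusted by Benjamini-Hochberg over the 17679 genes kept. Standard errors come from the fitted model's information and its quasi-likelihood dispersion, and 95% intervals from those and the test's degrees of freedom. The test was also run on simulated data in which all genes shared the same dispersion. The outcome of that run is not given here, and no call rests on it. Within groups, r across genes was 0.99316 to 0.9965, and between groups it was 0.99191 to 0.9932, so the ranges met. No pair of libraries agreed within sampling noise (chi-square at least 2.94 times its degrees of freedom). That multiple was 2.94 to 3.63 within DS38, 8.31 to 9.37 within DMSO and 10.51 to 29.74 between groups. The DMSO libraries thus differed more among themselves than the DS38 libraries did. The lowest multiple between groups was for DS38 replicate 2 and DMSO replicate 3. From each list the text names up to 3 genes of smallest adjusted p per direction, and other names are marked; a few that the rule picked are left unreported here. Alternatives were DESeq2, limma-voom, RLE scaling, library size alone, no filter, a filter of 5 CPM in 3 libraries, the replicate block, thinning to the smallest library, and leaving out each library. Counts per list under these, looser motif matches and the transcript lengths were added after seeing the data. RefSeq and GENCODE M21 are on GRCm38, so no coordinates of the counted genes are given.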

Additional observations from a re-analysis of the deposited data

How the results depend on the processing

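The number of the 10 genes that rose, 1, was 0 with DESeq2 and 0 to 1 when 1 library was left out, and the number that fell was 0 under every alternative run. Among all genes, 1640 to 2437 rose and 1549 to 2474 fell when 1 library was left out, and 1851 to 3289 and 1543 to 2227 under the others. Abca1, Nr1h2, Nr1h3, Mylip, Apoe and Npc2 kept their sign and did not pass under any alternative that tested them; Nr1h2 ran from 0.01 to 0.08 and Npc2 from 0.0279 to 0.0789. Npc1, at 0.01 in log2 fold change, turned to -0.0056 without DS38 replicate 1, -0.01 without DMSO replicate 2 and -0.03 without DMSO replicate 3; Abcg4 turned to -0.25 after thinning, -0.04 without DS38 replicate 1, -0.0831 without DMSO replicate 2 and -0.03 without DMSO replicate 3; Vldlr turned to -0.0189 without DS38 replicate 3 and -0.0158 without DMSO replicate 3. Leaving out 1 library, these 3 ran up to 0.0738, 0.357 and 0.0442. The stricter filter left out Abca1, Nr1h3 and Abcg4, and with it 1 other LXR target rose and 0 lipoprotein factors fell, since Mertk and Apod were not tested. With library size alone 1 LXR partner or coregulator fell. The 40 list genes followed were up to 3 called genes of smallest p per list and direction, with Srebf1, Lpcat3 and Vldlr. That choice favours calls that hold, and Rnf145 and Srebf2 were not among the 40. Of the 40, 28 kept their side of the threshold and their sign in every alternative that tested them. The cause of the other changes was not tested.

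No pairing of libraries by the replicate numbers of the titles was detected. Deviations of same-numbered libraries from their group means correlated at 0.0349, -0.0108 and -0.0266, and those of differently numbered libraries at -0.0436 to 0.0563. DS38 replicate 1 correlated best with DMSO replicate 1 (0.0349), DS38 replicate 2 with DMSO replicate 3 (0.017) and DS38 replicate 3 with DMSO replicate 2 (0.0563). With 3 libraries per group these values cannot show that numbered libraries were handled apart. With the replicate block 2108 genes rose and 1902 fell, Soat1 stayed past the threshold (edgeR adjusted p = 0.0493), and 1 of the 10 genes rose. Depth limits Abcg4 (137 counts in all) and Abcg1 (4 counts): differences there were not detectable at this depth unless large.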

Other observations

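Soat2, the second cholesterol-esterifying enzyme, known from liver and intestine, was left out by the filter on low counts and was looked at after its values were seen. It had 11, 16 and 23 counts in the DS38 libraries, against 3, 1 and 0 counts in the DMSO libraries. In CPM this was 0.223 ± 0.0738 in DS38 and 0.0274 ± 0.0312 in DMSO (SD, n = 3 each), so all DS38 libraries lay above all DMSO libraries. Without the filter on low counts it rose (edgeR adjusted p = 0.00150). These values rest on 54 counts in all.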
